A study of Mus musculus with 5 samples.

Results

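Apod, Pgf, Lgals3, S100a14, Ppif, Irs1 and Muc4 were followed through the cell classes of the mouse mammary gland. These 7 genes, of 32285 in the count tables, were chosen by their levels in luminal cells, which differed between libraries that carry replicate number 2 and the rest, so those luminal differences are described here without a test. Mammary gland of 5 mice was profiled by droplet single-cell RNA sequencing with the 10x Genomics 3′ kit, in which each captured transcript carries a molecular tag, or UMI, and is counted by it. There was 1 library per mouse: 3 were labelled Frmd3 KO (knockout; KO1, KO2 and KO3) and 2 were labelled wild type (WT1 and WT2). The labels give no age, strain, treatment or design of the deletion, and they do not say what the replicate number stands for, so it may or may not mark a shared litter, day or run. Frmd3 itself was read at 2.12, 3.06 and 1.88 CPM (UMIs per 1000000 UMIs) in the libraries labelled KO1, KO2 and KO3, against 1.45 and 2.33 CPM in WT1 and WT2. The values of the 2 genotypes overlapped, and since 3′ tags may lie outside a deleted part, it does not check the labels.

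The mammary epithelium is a bilayer. Basal, or myoepithelial, cells contract around it and luminal cells line the ducts. Among luminal cells, hormone-sensing cells carry the estrogen and progesterone receptors and pass the signal on to their neighbours, while luminal progenitors give rise to milk-secreting alveolar cells. Of the genes followed here, Apod encodes apolipoprotein D, a lipocalin that carries small lipids; Pgf encodes placental growth factor, a secreted ligand of the VEGF receptor Flt1; and Lgals3 encodes galectin-3, a lectin that binds galactosides. S100a14 is a calcium-binding S100 protein. Ppif encodes cyclophilin D, which regulates the permeability pore of mitochondria, Irs1 encodes an adaptor of the insulin and IGF1 receptors, and Muc4 encodes a membrane mucin of epithelial surfaces.

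Barcodes in which 500 or more genes were found and mitochondrial UMIs made up no more than 15%, less called doublets, numbered 9450 in KO1, 4440 in KO2, 2218 in KO3, 4831 in WT1 and 5895 in WT2. Their median depth ran between 4138 and 12685.5 UMIs. In KO1, 41.9% of cells lay in clusters that markers did not name, against 4.41% to 10.9% in the other 4 libraries. Barcodes shared by more than 1 library numbered 85 of 28503. Classes were named from marker genes, and the 7 genes took no part in the clustering. The luminal progenitor-like class held 2262 cells and was led by Ltf, Csn3, Wfdc18, Plet1, Lcn2, Kit and Aldh1a3; it had 409 cells in KO2, 292 in WT2, 775 in KO1, 50 in KO3 and 736 in WT1. The hormone-sensing luminal-like class held 3688 cells, with 1590 in KO2, 996 in WT2, 291 in KO1, 177 in KO3 and 634 in WT1. All 11 luminal progenitor markers were detected in the luminal progenitor-like class in every library, with a summed level between 18125 and 27385 CPM. Kit is also 1 of 7 mast/basophil markers, and in KO3 it was the only one of them detected in this class. These 7 summed to 194 and 189 CPM in KO2 and WT2, against 533, 405 and 529 CPM in KO1, KO3 and WT1. In KO3 the 405 CPM was thus Kit alone. The part of Kit in the sums of the other 4 libraries, and so in the difference, was not tested. KO3 rests on few luminal progenitor-like cells, and its values for Pgf, Ppif, S100a14, Muc4 and Irs1 there stand on 9, 8, 11, 13 and 19 UMIs.

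The genes are spread over 5 chromosomes of mm10. Apod (chr16:31296192-31314808, minus strand) and Muc4 (chr16:32735886-32782391, plus strand) lie 1.42 Mb apart, and they differed in opposite directions. Ppif (chr14:25694154-25700468, plus strand) and Lgals3 (chr14:47367751-47386160, plus strand) are 21.7 Mb apart. Pgf lies at chr12:85166635-85177790 (minus strand), S100a14 at chr3:90526856-90528837 (plus strand) and Irs1 at chr1:82233101-82291416 (minus strand). Ppif, Irs1 and Muc4 each overlap 1 annotated gene on the opposite strand (Ppifos, Gm9747 and Muc20), and since the use of strand in counting is not given in the sources used here, reads of such pairs may not have been told apart. Promoters of 250 bases before to 50 bases after a RefSeq start site, on GRCm38.p6, were found for 6 of the 7 genes, and S100a14 had no entry. The RefSeq start site of Lgals3 lies inside the gene span given above. They are shown for a pair that was higher and a pair that was lower in the number 2 libraries, 5′ to 3′ on the gene's strand, with the motif matches in capitals.
Apod, chr16:31314759-31315058, minus strand: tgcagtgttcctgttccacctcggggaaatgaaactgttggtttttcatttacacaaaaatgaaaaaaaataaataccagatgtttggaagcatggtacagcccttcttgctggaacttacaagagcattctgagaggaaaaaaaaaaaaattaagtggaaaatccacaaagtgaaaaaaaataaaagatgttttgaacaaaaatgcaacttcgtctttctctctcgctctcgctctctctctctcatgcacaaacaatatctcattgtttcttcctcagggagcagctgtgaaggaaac
Lgals3, chr14:47373610-47373909, plus strand: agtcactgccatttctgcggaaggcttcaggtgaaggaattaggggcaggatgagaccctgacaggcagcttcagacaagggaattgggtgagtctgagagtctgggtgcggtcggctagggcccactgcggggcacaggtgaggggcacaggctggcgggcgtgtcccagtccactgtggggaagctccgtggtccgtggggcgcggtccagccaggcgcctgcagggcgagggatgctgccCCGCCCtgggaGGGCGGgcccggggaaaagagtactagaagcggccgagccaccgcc
Irs1, chr1:82291390-82291689, minus strand: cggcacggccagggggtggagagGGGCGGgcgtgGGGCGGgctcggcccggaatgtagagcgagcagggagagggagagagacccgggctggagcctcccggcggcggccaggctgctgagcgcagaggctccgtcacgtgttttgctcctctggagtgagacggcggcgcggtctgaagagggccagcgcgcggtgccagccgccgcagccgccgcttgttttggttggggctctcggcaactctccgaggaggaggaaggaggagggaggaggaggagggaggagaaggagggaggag
Muc4, chr16:32735636-32735935, plus strand: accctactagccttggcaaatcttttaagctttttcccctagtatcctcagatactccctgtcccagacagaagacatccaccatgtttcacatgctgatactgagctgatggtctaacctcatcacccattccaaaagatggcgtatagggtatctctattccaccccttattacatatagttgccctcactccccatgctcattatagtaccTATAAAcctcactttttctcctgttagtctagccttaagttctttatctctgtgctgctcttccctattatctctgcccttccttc
The motifs searched, on both strands, were the glucocorticoid and progesterone receptor element (GNACA and TGTNC, 3 bases apart), the estrogen receptor element (GGTCA and TGACC, 3 bases apart), the STAT motif TTCNNNGAA, the AP-1 motif TGANTCA, the TATA box TATAAA and the GC box GGGCGG. The first 4 had no match in the promoters of the 6 genes, and over all 32851 promoters of this length they were found in 0.475%, 0.0700%, 8.30% and 7.81%. A GC box stood in the promoters of Lgals3, Irs1 and Ppif and in 1 of the 2 promoters of Pgf, against 35.7% of all promoters. The Muc4 promoter alone among them held a TATA box, starting 36 bases before the start site, against 13.6% of all promoters. The Apod promoter matched none of the 6 motifs and had a GC content of 37.3%. No match overlapped another. These matches describe letters in a window and do not show binding.

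In luminal progenitor-like cells, Apod, Pgf, Lgals3, S100a14 and Ppif were all higher in KO2 and WT2 than in KO1, KO3 and WT1, and Irs1 and Muc4 were lower. Apod had 759 CPM in KO2 and 602 in WT2, against 91.2 in KO1, 129 in KO3 and 118 in WT1. Both number 2 libraries thus lay several-fold above the other 3, whichever genotype label they carried. Pgf, the VEGF family ligand, had 101 and 138 CPM in KO2 and WT2, against 27.9, 17.0 and 25.9 CPM in KO1, KO3 and WT1. Lgals3 stood at 1319 and 1348 CPM in KO2 and WT2, against 259, 380.1 and 390.3 CPM in KO1, KO3 and WT1. The number 2 libraries differed from each other by less for Lgals3 than did the other 3. S100a14 had 112 and 107 CPM in KO2 and WT2, against 20.1, 20.8 and 29.2 CPM in KO1, KO3 and WT1. Ppif had 70.6 and 69.5 CPM in KO2 and WT2, against 15.5, 15.1 and 17.4 CPM in KO1, KO3 and WT1. Cyclophilin D transcript was thus at nearly the same level within each set of libraries.

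Irs1, the insulin receptor adaptor, went the other way, with 7.45 and 4.21 CPM in KO2 and WT2, against 29.7, 35.9 and 17.7 CPM in KO1, KO3 and WT1. Muc4 had 14.9 and 9.69 CPM in KO2 and WT2, against 41.9, 24.6 and 64.0 CPM in KO1, KO3 and WT1. Muc4 had the widest spread among KO1, KO3 and WT1 in proportion to its level. The fitted log2 difference of number 2 over the other numbers, with genotype in the model, was 2.67 for Apod, 2.23 for Pgf, 2.0 for Lgals3, 2.22 for S100a14 and 2.14 for Ppif. It was -2.02 for Irs1 and -1.91 for Muc4, which had the smallest difference among the 7 in absolute value. Ranges of the number 2 libraries and of the others did not overlap for any of the 7, as the choice of the genes fixes. Such ranges did not overlap for 36.2% of the 11603 genes tested in this class, and the median absolute log2 difference over those genes was 0.26. Over 10 alternatives each, the sign of all 7 differences was the same. The range was 2.38 to 2.91 for Apod and, the widest, -2.70 to -1.17 for Muc4. The choice of the genes left little room for a sign to turn, so this does not support the differences.

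**Figure D1:**
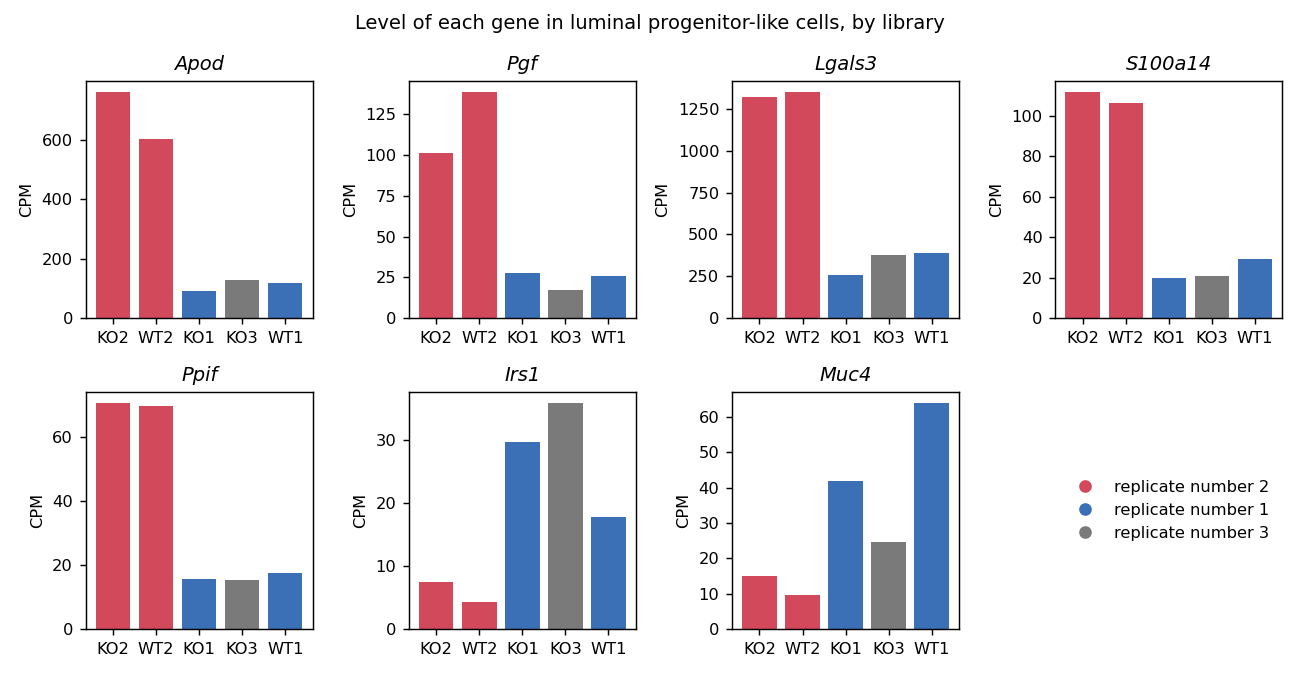
Level of each of the 7 genes in luminal progenitor-like cells in CPM (vertical axes, each starting at 0), with 1 bar per library and colours for the replicate number. KO2 and WT2 are above the other 3 libraries for Apod, Pgf, Lgals3, S100a14 and Ppif and below them for Irs1 and Muc4.

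The same was seen in the share of cells in which a transcript was found. Luminal progenitor-like cells of KO2 and WT2 were deeper, with medians of 11598 and 16415 UMIs against 8790, 7428.5 and 9654 in KO1, KO3 and WT1, so each cell was thinned to 2000 UMIs and shallower cells were left out (16, 10, 49, 3 and 33 in the same order). Apod was then found in 34.4% of cells in KO2 (exact 95% interval 29.7% to 39.3%) and 36.9% in WT2 (31.2% to 42.8%), against 10.2% in KO1, 12.8% in KO3 and 9.82% in WT1. The cells with Apod also held more of it in the number 2 libraries, with means of 4.92 and 3.31 UMIs in KO2 and WT2, against 1.99, 1.83 and 2.42 in KO1, KO3 and WT1. Lgals3 was found in 67.9% and 71.3% of cells in KO2 and WT2, against 25.5%, 34.0% and 32.6% in KO1, KO3 and WT1. Most luminal progenitor-like cells of the number 2 libraries thus held Lgals3 at a depth at which it was found in a minority of cells of the others. Muc4 was found in 1.02% and 1.06% of cells in KO2 and WT2, against 5.10%, 2.13% and 9.10% in KO1, KO3 and WT1. Irs1 was found in 1.53% and 1.42% of cells in KO2 and WT2, against 8.40%, 4.26% and 4.41% in KO1, KO3 and WT1. Pgf was found in 11.2% and 17.0% of cells in KO2 and WT2, against 4.27%, 4.26% and 3.27% in KO1, KO3 and WT1, and S100a14 in 15.01% and 14.9% of cells in KO2 and WT2, against 3.03%, 2.13% and 5.26% in KO1, KO3 and WT1. Without thinning, Muc4 was found in 9.29% and 7.88% of cells in KO2 and WT2, against 15.6%, 14% and 24.7% in KO1, KO3 and WT1, and Apod in 56.0% and 67.1%, against 24.8%, 16% and 25.1%. The intervals cover counting error only.

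Droplets also take up free RNA, and T cell-like cells, which should lack most of these transcripts, give its scale. At 2000 UMIs, Apod was found in 0% and 2.52% of T cell-like cells in KO2 and WT2, against 0.265%, 2.70% and 0% in KO1, KO3 and WT1. Pgf and Muc4 were found in 0% of T cell-like cells in every library, which allows a share of up to 3.57% and 0.840% in KO2 and WT2 and of up to 0.796%, 4.05% and 1.79% in KO1, KO3 and WT1, so the luminal progenitor-like Muc4 shares in KO2 and KO3 were within that limit. Counts of 0 for Apod, Irs1 and S100a14 carry the same limits, and the Irs1 share in KO2 and the S100a14 share in KO3 were within them. Lgals3 was found in 22.6% and 31.7% of T cell-like cells in KO2 and WT2, against 5.57%, 20.3% and 18.5% in KO1, KO3 and WT1, below the luminal progenitor-like share in each library. Irs1 was found in at most 0.280% of them, and S100a14 in at most 0.840%. Ppif was found in 2.70% to 4.76% of T cell-like cells, and its luminal progenitor-like share was 8.91% and 11.3% in KO2 and WT2, against 2.34%, 0% of 47 cells (which allows up to 6.38%) and 2.84% in KO1, KO3 and WT1. The Ppif share outside the number 2 libraries thus lay at or near that of T cell-like cells. Ppif was found in 0.442% and 1.35% of fibroblast-like cells in KO2 and WT2, against 0.955%, 0.965% and 0.746% in KO1, KO3 and WT1, so T cell-like cells may hold Ppif of their own and do not set its background. Median depth in T cell-like cells was between 3636 and 5830 UMIs.

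**Figure D2:**
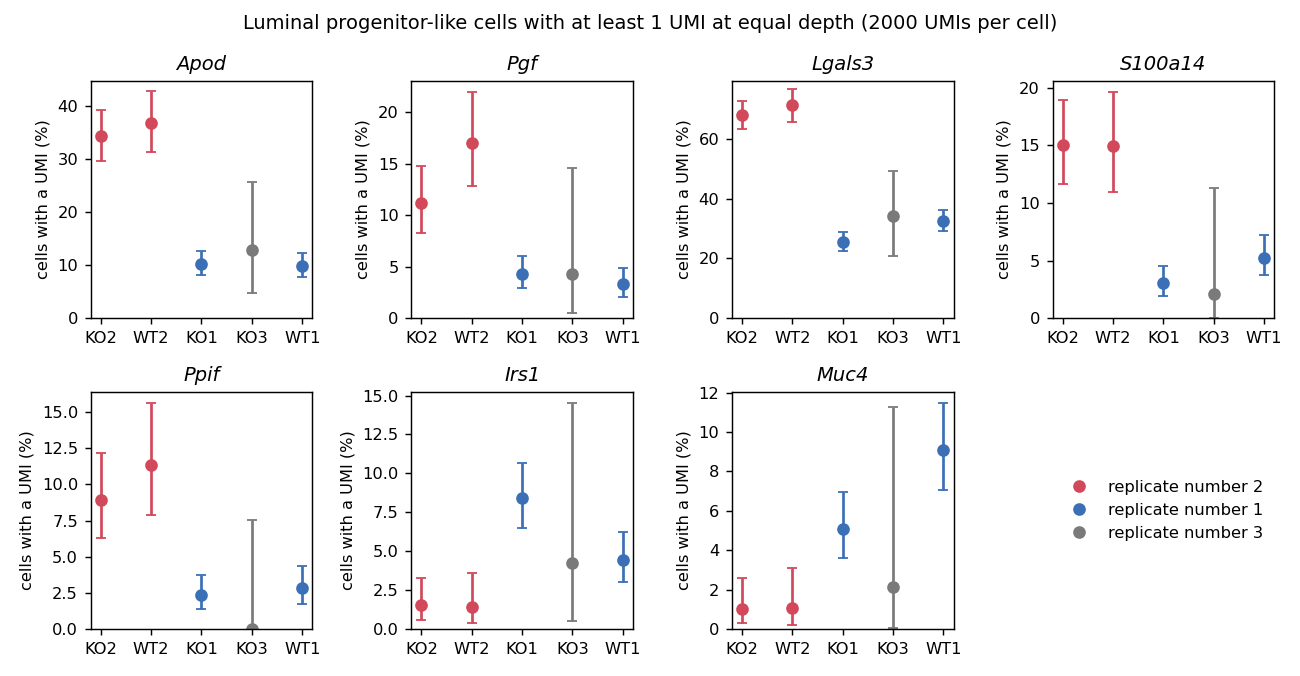
Percent of luminal progenitor-like cells with at least 1 UMI of each gene after thinning each cell to 2000 UMIs, by library; bars are exact 95% binomial intervals and cover counting error only. Apod was found in 34.4% and 36.9% of cells of KO2 and WT2, against 9.82% to 12.8% in the other 3 libraries, and the KO3 intervals are wide because 47 cells were left there.

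Within luminal progenitor-like cells at equal depth, cells with an Apod UMI were set beside those without one, as a description. Lgals3 was found in 74.8% of the 135 cells with Apod and 64.3% of the 258 cells without Apod in KO2, and in 77.9% of 104 and 67.4% of 178 in WT2. In KO1 and WT1 these shares of Lgals3 were 23.0% of 74 and 25.8% of 652, and 40.6% of 69 and 31.7% of 634. Cells without Apod in KO2 and WT2 were thus still more often Lgals3 positive than cells with Apod in KO1 or WT1. Muc4 was found in 1.45% of cells with Apod and 9.94% of cells without Apod in WT1, and in 4.05% and 5.21% of them in KO1. Pgf was found in 12.6% of cells with Apod and 10.5% of cells without Apod in KO2, and in 19.2% and 15.7% in WT2. In KO1 these shares of Pgf were 14.9% and 3.07%, and in WT1 4.35% and 3.15%. For S100a14, Ppif and Irs1 the direction differed between these libraries. KO3 had 6 cells with Apod and is too thin for this.

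In hormone-sensing luminal-like cells, the split by replicate number was seen in Lgals3, S100a14 and Irs1 but not in Apod, Pgf or Muc4. Lgals3 had 2821 and 1972 CPM in KO2 and WT2, against 1064, 996 and 1031 CPM in KO1, KO3 and WT1. S100a14 had 208 and 202 CPM in KO2 and WT2, against 71.0, 90.3 and 92.5 CPM in KO1, KO3 and WT1. Irs1 had 2.36 and 2.35 CPM in KO2 and WT2, against 18.9, 14.2 and 10.48 CPM in KO1, KO3 and WT1. These 3 genes had ranges that did not overlap, which held for 42.2% of the 12765 genes tested in the class. Ppif had 11.9 and 10.3 CPM in KO2 and WT2, against 5.54, 11.01 and 6.33 CPM in KO1, KO3 and WT1, so its ranges overlapped through KO3. In cells assigned by marker level alone they did not overlap (means 11.3 and 6.99 CPM), and the share of all genes was not counted there. The 11 luminal progenitor markers summed here to 435 and 574 CPM in KO2 and WT2, against 323, 3336 and 370 CPM in KO1, KO3 and WT1. Their part in the KO3 values was not tested. Apod was between 3.47 and 16.8 CPM, Pgf between 0.163 and 0.980 CPM, and Muc4 between 0.122 and 7.34 CPM in all 5 libraries. Apod, Pgf and Muc4 were thus lower here than in luminal progenitor-like cells in each of the 5 libraries, and gave no clear order. The fitted log2 difference of number 2 over the others was 1.22 for Lgals3, 1.25 for S100a14, -2.54 for Irs1 and 0.59 for Ppif.

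**Figure D3:**
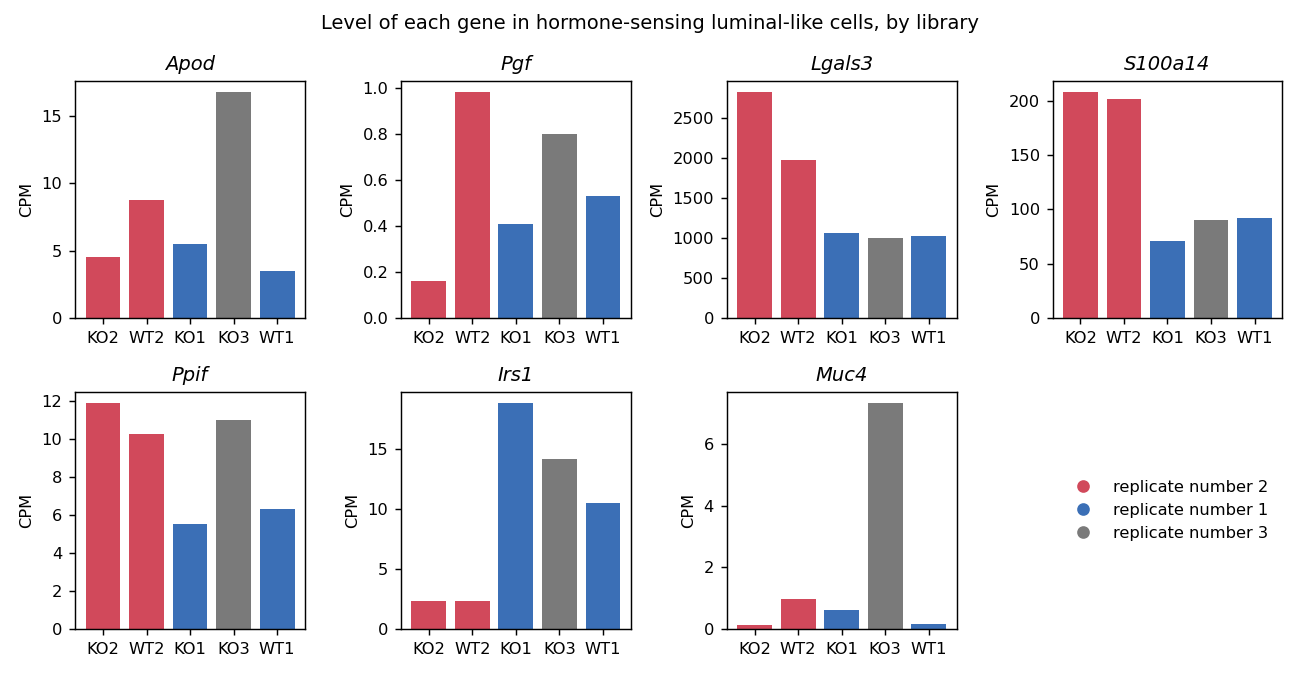
Level of each of the 7 genes in hormone-sensing luminal-like cells in CPM (vertical axes, each starting at 0), with 1 bar per library and colours for the replicate number. Lgals3 and S100a14 are higher and Irs1 is lower in KO2 and WT2 than in the other 3 libraries, while Apod, Pgf, Ppif and Muc4 overlap.

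These hormone-sensing cells fell mainly into a pair of clusters that the libraries did not fill alike. The first, led by Fgb, Upk3a and Cited1, held 75.6% of the class in KO2 and 77.2% in WT2, against 0.687% in KO1, 7.34% in KO3 and 0.789% in WT1. The second, led by Nrxn3, Prlr and Aqp5, held 21.4% and 16.8% in KO2 and WT2, against 99.3%, 87.6% and 99.1% in KO1, KO3 and WT1. Within the second cluster, which all 5 libraries filled, S100a14 had 41.4 and 40.0 CPM in KO2 and WT2, against 70.9, 77.0 and 91.7 CPM in KO1, KO3 and WT1. Within that cluster S100a14 was thus lower in the number 2 libraries, the opposite of the class as a whole. Lgals3 there had 1463 and 910.1 CPM in KO2 and WT2, against 1051, 1045 and 1029 CPM in KO1, KO3 and WT1, and the ranges overlapped. Irs1 kept its direction in that cluster, with 6.79 and 8.76 CPM in KO2 and WT2, against 19.1, 15.7 and 10.6 CPM in KO1, KO3 and WT1. In the first cluster S100a14 stood at 220 and 211 CPM and Lgals3 at 3147 and 2183 CPM in KO2 and WT2; the other 3 libraries had under 20 cells each there and were not read. The luminal progenitor-like class was a single cluster and was not split in this way. This look within clusters was chosen after the values were seen.

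**Figure D4:**
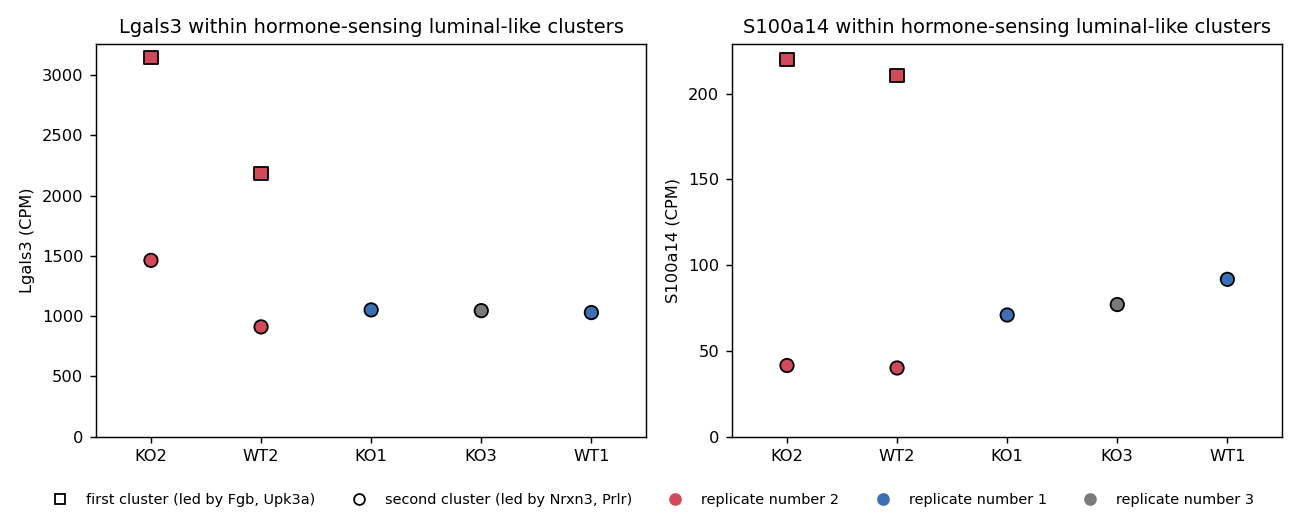
Level of Lgals3 (left) and S100a14 (right) in CPM within the 2 main hormone-sensing luminal-like clusters, by library; squares are the first cluster, which only KO2 and WT2 filled with at least 20 cells, and circles are the second. In the second cluster S100a14 is at 41.4 and 40.0 CPM in KO2 and WT2 and at 70.9 to 91.7 CPM in the other 3 libraries.

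Genotype was tested on UMI counts summed per library and class with edgeR's quasi-likelihood test, adjusted over all genes tested. None of the genes tested passed the threshold between the knockout-labelled and WT libraries, with 7 tested in each luminal class, 5 in basal/myoepithelial-like and 6 in fibroblast-like cells. In luminal progenitor-like cells Apod averaged 326 ± 375 CPM in the knockout-labelled libraries and 359.8 ± 343 CPM in WT (SD, n = 3 and 2), and the log2 difference was -0.12 ± 1.19 (SE). The SD was as large as the mean because each genotype holds 1 number 2 library. Irs1 had the largest genotype difference of the 7 there, 0.93 ± 0.82 (adjusted p = 1.0, edgeR), with 29.7, 7.45 and 35.9 CPM in KO1, KO2 and KO3, against 17.7 and 4.21 CPM in WT1 and WT2. Within replicate number 2, Irs1 was 7.45 CPM in KO2 and 4.21 CPM in WT2, and within number 1 it was 29.7 CPM in KO1 and 17.7 CPM in WT1; KO3 has no WT library of its number. In both pairs the knockout-labelled library was higher. Muc4, by contrast, was higher in KO2 than in WT2, 14.9 against 9.69 CPM, and lower in KO1 than in WT1, 41.9 against 64.0 CPM.

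The other 5 genes had genotype differences in luminal progenitor-like cells between -0.61 ± 0.98 for Pgf and -0.21 ± 0.93 for Ppif. In hormone-sensing luminal-like cells they were 0.11 ± 0.56 for Lgals3, -0.26 ± 0.55 for S100a14 and 0.80 ± 1.01 for Irs1. The widest error was that of Muc4, 2.07 ± 1.70, which had 7.34 CPM in KO3 and under 1 CPM in the other 4 libraries. The luminal progenitor markers summed to 3336 CPM in this class in KO3, against 323 to 574 CPM in the other 4 libraries. Their part in the Muc4 value of KO3 was not tested. Of the genes tested, 0.0% were called by genotype with edgeR in each of these 4 classes, while 100, 87, 79 and 104 genes had an unadjusted p under 0.05 in luminal progenitor-like, hormone-sensing luminal-like, basal/myoepithelial-like and fibroblast-like cells. DESeq2 called 0, 1, 0 and 0 genes in the same order. In blood endothelial-like and macrophage-like cells, edgeR called 0 of 5549 and 1 of 8873 genes by genotype, and DESeq2 called 0 and 2. The 1 called by edgeR was not among the 7. The ranges of the knockout-labelled and WT libraries overlapped for all 7 genes in both luminal classes, where they did not overlap for 13.5% and 10.8% of the genes tested. A p that misses the threshold does not show that the genotypes are alike. In fibroblast-like cells 2 of the 6 genes tested, Lgals3 and Ppif, had all knockout-labelled values below both WT values, where ranges did not overlap for 8.83% of genes; Lgals3 had 84.2, 77.1 and 41.8 CPM in KO1, KO2 and KO3, against 110 and 84.9 CPM in WT1 and WT2 (log2 -0.53 ± 0.33, adjusted p = 1.0, edgeR).

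**Figure D5:**
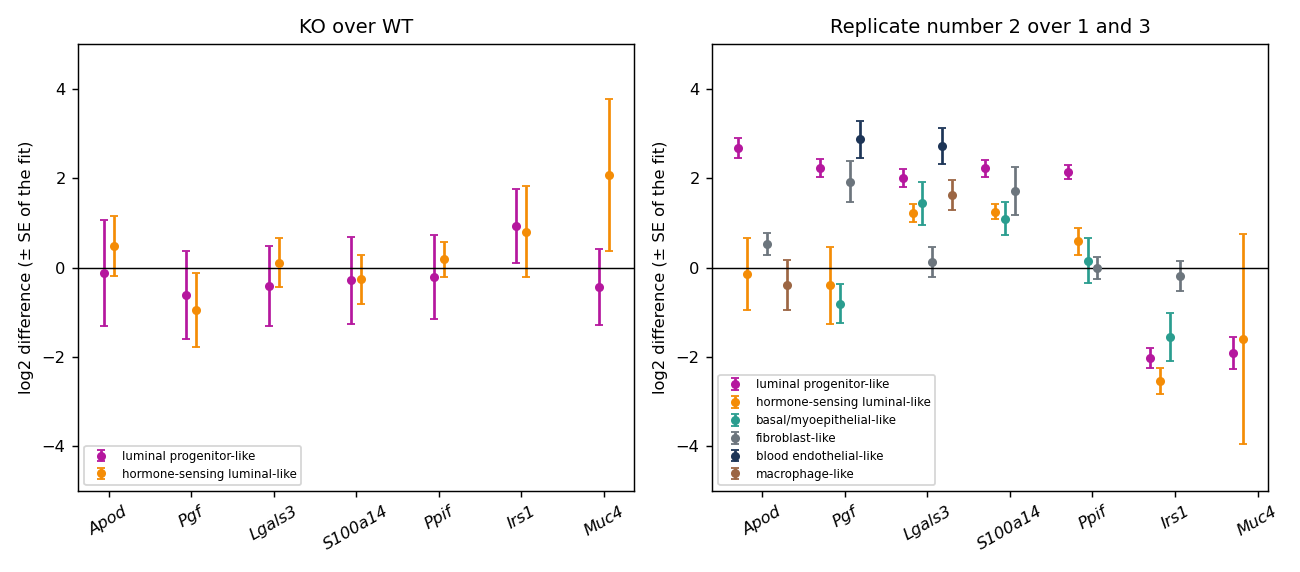
Fitted log2 difference of each gene with its standard error, for KO over WT in the 2 luminal classes (left) and for replicate number 2 over numbers 1 and 3 in 6 classes (right); a gene is absent where it was too low to be tested. The luminal values on the right chose the genes and carry no test, and among the other classes only Pgf and Lgals3 in blood endothelial-like cells passed an adjusted p of 0.05 with edgeR.

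Values outside the luminal cells did not enter the choice of genes, so the number contrast was tested there, but they come from the same 5 libraries and the same split and are not independent evidence. In blood endothelial-like cells, Pgf and Lgals3 rose in the number 2 libraries. Pgf had 106 and 187 CPM in KO2 and WT2, against 0, 18.6 and 24.6 CPM in KO1, KO3 and WT1, a log2 difference of 2.87 ± 0.42 (SE; adjusted p = 0.00136, edgeR). Lgals3 had 245 and 275 CPM in KO2 and WT2, against 62.8, 19.9 and 58.9 CPM in KO1, KO3 and WT1, with 2.72 ± 0.40 (adjusted p = 0.0021, edgeR). Both of the 2 genes that could be tested were thus called, where 13.7% of 5549 genes were; their ranges did not overlap, as for 43.4% of those genes. Over 10 alternatives the adjusted p reached at most 0.0362 for Pgf and 0.0454 for Lgals3. The class was small: 129 and 28 cells in KO2 and WT2, and 20, 171 and 43 in KO1, KO3 and WT1, where a count of 0 for Pgf in KO1 allows up to 17.1 CPM. Lgals3 in B lineage-like cells was 116 and 132 CPM in KO2 and WT2, against 26.4 and 57.1 CPM in KO1 and WT1, while Pgf there was at most 2.26 CPM; the part of free RNA in the Lgals3 difference was not tested. This class and the macrophage-like one were added to the tests after values were known.

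Kdr, Nrp1 and Flt1, receptors of the VEGF family, fell in these endothelial cells. Kdr and Flt1 are also among the 9 markers used to name the class. Of 7 other genes of the VEGF family list tested, 3 fell and 1 rose in the number 2 libraries (edgeR), where 13.7% of all genes were called in either direction. Kdr, the main signalling receptor for VEGF-A, had 37.0 and 40.9 CPM in KO2 and WT2, against 394, 796 and 597 CPM in KO1, KO3 and WT1, a log2 difference of -3.94 ± 0.39 (adjusted p = 1.04e-04, edgeR). The co-receptor Nrp1 fell by 2.38 ± 0.28 (adjusted p = 2.74e-04, edgeR), with 114 and 149 CPM in KO2 and WT2, against 748, 524 and 761 CPM in KO1, KO3 and WT1. The third that fell was Flt1, the receptor for Pgf itself, and the 1 that rose was the ligand Vegfa, at 191 and 120 CPM in KO2 and WT2, against 40.0, 17.3 and 61.4 CPM in KO1, KO3 and WT1; these were named after their values were seen. Flt1 and Vegfa passed under 9 of 10 alternatives each and not without KO2 (adjusted p = 0.153 and 0.518, edgeR). In bulk sums of a class, a change of endothelial subtypes and a change per cell cannot be told apart.

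In basal/myoepithelial-like cells none of the 5 genes tested was called by number, where 0.702% of 7977 genes were. S100a14 had 34.6 and 61.8 CPM in KO2 and WT2, against 21.8, 14.3 and 22.3 CPM in KO1, KO3 and WT1 (log2 1.10 ± 0.37, adjusted p = 0.229, edgeR). Irs1 had 4.07 and 8.25 CPM in KO2 and WT2, against 16.4, 22.4 and 17.7 CPM in KO1, KO3 and WT1 (log2 -1.55 ± 0.55, adjusted p = 0.254, edgeR). Lgals3 had 40.7 and 47.8 CPM in KO2 and WT2, against 16.4, 2.04 and 19.98 CPM in KO1, KO3 and WT1 (log2 1.44 ± 0.48, adjusted p = 0.246, edgeR). These 3 genes had library ranges that did not overlap, in the luminal direction, which held for 32.2% of genes tested in either direction. Pgf in basal cells had the opposite sign to that in luminal progenitor-like cells, -0.81 ± 0.44 (adjusted p = 0.506, edgeR), with 12.2 and 32.2 CPM in KO2 and WT2, against 40.4, 18.3 and 40.7 CPM in KO1, KO3 and WT1. Ppif had a difference of 0.15 ± 0.50. Lgals3 passed without a low-count filter (adjusted p = 0.0236) and, without KO3, Lgals3, S100a14 and Irs1 passed (adjusted p = 0.0131, 0.0161 and 0.0474, edgeR). KO2 had 33 basal cells and KO3 had 37. Apod, too low for the test, stood at 54.9 CPM in KO2 and at 4.07 to 10.7 CPM in the other 4 libraries.

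Fibroblast-like cells held much Apod in every library, with 741 and 871 CPM in KO2 and WT2, against 634, 409 and 714 CPM in KO1, KO3 and WT1. The log2 difference by number was 0.53 ± 0.24 (adjusted p = 0.303, edgeR), against 2.67 in luminal progenitor-like cells; the difference between the classes was not tested. Pgf had 23.6 and 19.96 CPM in KO2 and WT2, against 8.41, 2.43 and 7.11 CPM in KO1, KO3 and WT1 (log2 1.92 ± 0.46, adjusted p = 0.112, edgeR). S100a14 was at most 2.33 CPM (log2 1.71 ± 0.55, adjusted p = 0.18, edgeR). Lgals3, Irs1 and Ppif differed by 0.12 ± 0.33, -0.18 ± 0.34 and -0.01 ± 0.24, and the sign of the Ppif value was positive under other scalings. Ranges by number did not overlap for Apod, Pgf and S100a14, 3 of the 6 genes tested, where this held for 50.4% of all genes. None of the 6 was called in fibroblast-like cells, where 1.4% of 14244 genes were. Pgf passed the threshold with DESeq2 (adjusted p = 0.000749) and without KO1, KO3, WT1 or WT2, and S100a14 passed without KO3 (adjusted p = 0.0336, edgeR) and without WT1 (adjusted p = 0.0401, edgeR).

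In macrophage-like cells, a well-known source of galectin-3, Lgals3 had 1876 and 1714 CPM in KO2 and WT2, against 557, 394 and 941 CPM in KO1, KO3 and WT1. The log2 difference was 1.63 ± 0.33, and it did not pass the threshold with edgeR (adjusted p = 0.179), where 0.0789% of 8873 genes did. The ranges did not overlap, as for 33.8% of genes in this class. The difference passed under 3 of 10 alternatives, among them DESeq2 (adjusted p = 0.000837). Apod, the other gene tested there, differed by -0.39 ± 0.56. In T cell-like cells Lgals3 had 447 and 290.3 CPM in KO2 and WT2, against 53.6, 105 and 162 CPM in KO1, KO3 and WT1. In NK/innate lymphoid-like cells the values overlapped, with 368 and 251 CPM in KO2 and WT2, against 128, 144 and 332 CPM in KO1, KO3 and WT1.

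Across the named classes, Muc4 was highest in luminal progenitor-like cells in all 5 libraries, at 9.69 to 64.0 CPM, and reached at most 2.56 CPM outside the luminal classes. S100a14 was highest in hormone-sensing luminal-like cells in all 5 libraries, at 71.0 to 208 CPM. Pgf was highest in blood endothelial-like cells in KO2, WT2 and KO3 and in basal/myoepithelial-like cells in KO1 and WT1. In KO2 the endothelial and luminal progenitor-like values, 106 and 101 CPM, were close. In KO3 the endothelial, basal and luminal progenitor-like values were also close, so no class stood clearly highest there. Ppif was highest in luminal progenitor-like cells in KO2 and WT2 but in T cell-like cells in KO1 and KO3, at 15.9 and 30.7 CPM, and in B lineage-like cells in WT1, at 23.8 CPM. Lgals3 was highest in hormone-sensing luminal-like cells in all 5 libraries, at 996 to 2821 CPM, followed in KO2, WT2, KO1, KO3 and WT1 by macrophage-like, luminal progenitor-like or neutrophil-like cells, whose ranges of 394 to 1876, 259 to 1348 and 444 to 1201 CPM overlapped. Apod was highest in fibroblast-like cells in KO1, KO3, WT1 and WT2 and in luminal progenitor-like cells in KO2, where the 2 classes had 741 and 759 CPM. Irs1 in Schwann/glial-like cells reached 78.7 CPM in KO1, which had 25 such cells.

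Among the families of the 7 genes, the S100 genes had the most genes called by number in luminal progenitor-like cells. Of 12 other S100 genes tested, 5 were called higher and 0 lower in the number 2 libraries (edgeR), where 1.18% of all genes were called in either direction, and 11 of 12 had a positive difference, with a median of 1.02 against -0.01 over all genes. As many cyclophilins and pore partners, 11 of 12, were positive in this class, with a median of 0.22. The S100 differences were also positive for 10 of 11 genes in hormone-sensing luminal-like cells (median 0.41). In basal/myoepithelial-like and fibroblast-like cells 6 of 7 and 8 of 12 were positive (medians 0.39 and 0.25). S100a10, which forms a complex with annexin A2, had 1236 and 1382 CPM in KO2 and WT2, against 561, 635 and 660.1 CPM in KO1, KO3 and WT1 (log2 1.11 ± 0.16, adjusted p = 0.0305, edgeR). S100a6, or calcyclin, had 4151 and 4668 CPM in KO2 and WT2, against 1463, 2186 and 1874 CPM in KO1, KO3 and WT1 (log2 1.30 ± 0.20, adjusted p = 0.0326, edgeR). The others called were S100a4, S100a16 and S100a11. None of these 5 passed without KO2, WT1 or WT2 or under the marker gate, which assigns cells by marker level, and 4 of them, all but S100a16, did not pass without KO1; all 5 differences were positive under each of the 10 alternatives. Since this contrast chose S100a14, the count describes these libraries and does not support the choice.

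In the insulin and IGF list, 1 of 18 other genes was called lower and 0 higher in luminal progenitor-like cells. That was Pik3r1, the regulatory subunit of PI3-kinase that docks on Irs1, with 65.5 and 59.2 CPM in KO2 and WT2, against 196, 170.2 and 137 CPM in KO1, KO3 and WT1 (log2 -1.32 ± 0.18, adjusted p = 0.0247, edgeR). The same contrast chose Irs1, so this value describes these libraries and does not support the choice. Pik3r1 also fell in basal/myoepithelial-like cells, with 99.7 and 102 CPM in KO2 and WT2, against 356, 220.0 and 329.6 CPM in KO1, KO3 and WT1 (log2 -1.71 ± 0.31, adjusted p = 0.0229, edgeR). In both classes Pik3r1 passed under 6 of 10 alternatives and not without KO2, WT1 or WT2 or under the marker gate, and it was negative in all 10. In fibroblast-like cells, Igfbp3, a carrier of IGFs, rose by 2.08 ± 0.24 (adjusted p = 0.0405, edgeR), with 242 and 417 CPM in KO2 and WT2, against 87.5, 63.2 and 83.0 CPM in KO1, KO3 and WT1. Igfbp3 passed under 8 of 10 alternatives and not with doublets kept or under the marker gate. In luminal progenitor-like cells 0 of 1 other lipocalin, 0 of 4 VEGF family genes, 0 of 8 galectins, 0 of 12 cyclophilins and pore partners, 0 of 3 mucins and 0 of 11 hormone receptor and response genes were called, though 11 of the 12 cyclophilins and pore partners had a positive difference (median 0.22) and all 3 mucins a negative one (median -0.68). In hormone-sensing luminal-like cells no gene of the 9 lists was called, where 0.0235% of all genes were. By genotype, no gene of the 9 lists was called in the luminal, basal/myoepithelial-like and fibroblast-like classes.

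Immediate-early and stress genes, which respond to tissue handling among other stimuli, were lower in the number 2 libraries beside these differences. In luminal progenitor-like cells 13 of 14 had a negative difference (median -0.98) and 1 was called: Fosb had 1146 and 803 CPM in KO2 and WT2, against 2523, 2895 and 3028 CPM in KO1, KO3 and WT1 (log2 -1.47 ± 0.21, adjusted p = 0.0305, edgeR). Fosb did not pass without KO2, WT1 or WT2 or under the marker gate. In basal/myoepithelial-like cells all 14 were negative (median -1.48) and 4 were called, where 0.702% of all genes were, led by Egr1, with 144 and 213 CPM in KO2 and WT2, against 917, 848 and 884 CPM in KO1, KO3 and WT1 (log2 -2.45 ± 0.27, adjusted p = 0.00205, edgeR). None of these 4 passed without KO2 or under the marker gate, and Egr1 and Junb passed under the other 8 alternatives. In fibroblast-like cells all 14 were negative (median -0.74) with 0 called, in blood endothelial-like cells 13 were negative (median -1.65) with 4 called, where 13.7% of all genes were (2 of these 4, Atf3 and Junb, did not pass without KO2), and in hormone-sensing luminal-like and macrophage-like cells 12 were negative with 0 called. The median mitochondrial share of luminal progenitor-like cells was 1.94% and 2.18% in KO2 and WT2, against 3.11%, 3.79% and 3.05% in KO1, KO3 and WT1. Their part in the differences of the 7 genes was not tested. The luminal progenitor-like contrast is also the one that chose the 7 genes, so the Fosb call describes these libraries only.

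Markers of other cells were also read in the luminal progenitor-like sums. The 10 fibroblast markers summed to 489.9 and 614 CPM in KO2 and WT2, against 425, 206 and 269 CPM in KO1, KO3 and WT1. The 11 basal markers summed to 163 and 237 CPM in KO2 and WT2, against 86.9, 96.4 and 129 CPM in KO1, KO3 and WT1. The 11 hormone-sensing markers summed to 376 and 539 CPM in KO2 and WT2, against 182, 1089 and 214 CPM in KO1, KO3 and WT1. The first 2 sums were higher in KO2 and WT2 than in KO1, KO3 and WT1, and the third was highest in KO3. Fibroblast-like cells carry Apod at 409 to 871 CPM, and their markers were detected in 10 of 10 cases in KO2, WT2, KO1 and WT1 and in 7 of 10 in KO3. Their part in the Apod difference was not tested.

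The 7 genes did not vary alike over the 10 luminal sums, 2 classes in 5 libraries with each class centred on its own mean. The correlation of each gene with the mean standardised profile of the 7 was 0.98 for Apod, 0.95 for Ppif, 0.90 for Pgf, 0.82 for S100a14 and 0.76 for Lgals3, but -0.63 for Irs1 and -0.19 for Muc4. Each gene is part of that mean, and the sums share libraries and depth. Of 4520 genes with at least 20 CPM on average in both luminal classes, the 5 most like the mean profile were Pdcd5 (Pearson r = 0.97), Capg (0.96), Snrpb2 (0.95), Mapk13 (0.94) and Ppp4r2 (0.93), over 10 sums and with no test. Their own differences were small: Capg had 126 and 126 CPM in KO2 and WT2, against 91.9, 88.9 and 88.0 CPM in KO1, KO3 and WT1, in luminal progenitor-like cells.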

How the data were processed

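UMI counts per gene and cell barcode, as deposited by the authors, were made with Cell Ranger (version 6.1.2 for KO3, version 6.0.2 for the other 4 libraries), per the file headers, on mm10, per the submitters' processing notes. The sources used here give neither the cell-calling rule nor the annotation release. The 7 genes and all lists were chosen with earlier results of these data known. Simulated doublets (2 per cell) were used to remove the top 0.8% per 1000 barcodes in each library. Counts were scaled to 10000 per cell, and 2000 variable genes, 30 components, 20 neighbours and Leiden clustering (leidenalg 0.10.2, resolution 1, no batch correction) gave 25 clusters. To be named, a cluster had to show 3 or more markers, each found in 10% of cells, and 50% of its cells had to fall in the same class by marker level alone; 4 clusters stayed unnamed. Names are rebuilt and may differ from the study's.

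CPM here is UMIs per 1000000 UMIs of a class in a library, with no further scaling. Counts summed per library and class (at least 20 cells) were fitted with edgeR 4.0.16 (filterByExpr, TMM, robust quasi-likelihood) in R 4.3.3, threshold 0.05 after Benjamini-Hochberg adjustment; DESeq2 1.42.0 was an alternative. The SE is that of the fitted log2 difference. The fits were tested on simulated data. Each library is 1 mouse. Named genes were the 7, up to 2 called members of each of the 9 lists per class, and the 5 most alike; exceptions are stated. Gene IDs were looked up in GENCODE mouse release 21 for positions.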

Additional observations from a re-analysis of the deposited data

How the results depend on the processing

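Calls by genotype numbered 0 in luminal progenitor-like, hormone-sensing luminal-like, basal/myoepithelial-like and fibroblast-like cells. Without a low-count filter they numbered 75 in luminal progenitor-like and 10 in basal/myoepithelial-like cells, and with DESeq2 1 in hormone-sensing luminal-like cells. Leaving out 1 library gave 0 to 1 in luminal progenitor-like and 0 to 12 in basal/myoepithelial-like cells (3 without WT1, 12 without WT2). Calls by replicate number, in the order luminal progenitor-like, hormone-sensing luminal-like, basal/myoepithelial-like, fibroblast-like, blood endothelial-like and macrophage-like cells, were 137, 3, 56, 199, 758 and 7. They were 207, 583, 32, 1143, 513 and 30 with DESeq2, 665, 256, 298, 1072, 1285 and 130 without a low-count filter, 357, 4, 94, 52, 691 and 3 with doublets kept, and 0, 1, 0, 0, 712 and 7 under the marker gate, which assigns cells by marker level in place of clusters. With RLE size factors hormone-sensing luminal-like cells gave 1. Leaving out 1 library gave 1 to 1823, 0 to 3706, 35 to 1087, 310 to 3188, 209 to 1086 and 4 to 66 in that order. Without KO3, the fit of number 2 against number 1, the first 4 classes gave 1823, 3706, 1087 and 3188; without WT2, WT1 or KO2 luminal progenitor-like cells gave 1, 6 and 3. The cause was not tested.

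For the genes of the lists that were called by number and are named, the same alternatives were added after the values were seen; no sign turned. The signs of some other differences, none called in the setting reported, turned. By genotype, with the replicate block, Apod was -0.38 and Muc4 -1.58 in hormone-sensing luminal-like cells. By number, Lgals3 in basal/myoepithelial-like cells was -0.036 with doublets kept, Apod in macrophage-like cells was 0.10 under the marker gate, and Ppif in fibroblast-like cells was 0.012 with RLE size factors, 0.011 with DESeq2, 0.081 with doublets kept and 0.077 under the marker gate. With 1 library left out, genotype differences in luminal progenitor-like cells ran over -1.80 to 1.51 for Apod, -1.77 to 1.05 for Pgf, -1.52 to 0.76 for Lgals3, -1.78 to 0.93 for S100a14, -1.53 to 1.10 for Ppif and -1.22 to 1.47 for Muc4. In hormone-sensing luminal-like cells they ran over -0.28 to 1.26 for Apod, -0.57 to 0.61 for Lgals3, -0.89 to 0.36 for S100a14, -0.10 to 0.53 for Ppif and -1.08 to 3.91 for Muc4. By number they ran over -0.47 to 0.18 for Irs1, -0.27 to 0.40 for Lgals3 and -0.21 to 0.24 for Ppif in fibroblast-like cells, and -1.77 to 0.32 for Apod in macrophage-like cells.

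With a replicate block for genotype, calls numbered 192, 80, 20 and 13 in luminal progenitor-like, hormone-sensing luminal-like, basal/myoepithelial-like and fibroblast-like cells, and Irs1 in luminal progenitor-like cells was 0.76 with an adjusted p of 0.0241 (edgeR). Only 2 pairs share a number, and nothing in the labels says that a number marks a shared source. In these 4 classes, deviations from the group means correlated across genes at 0.43 to 0.70 for KO1 with WT1. For KO2 with WT2 they correlated at 0.48 to 0.74. The same 2 values were 0.33 and 0.66 in blood endothelial-like and 0.25 and 0.26 in macrophage-like cells. With 2 WT libraries the deviations of WT1 and WT2 are exact opposites, so the 2 correlations are not separate evidence of a pairing. KO3 rests on 50 luminal progenitor-like cells, which limits what its low counts show.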
